A study of Mus musculus with 4 samples.

Results

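The extracellular matrix genes described here are the collagens, the laminin chains and 12 further matrix genes looked for by symbol: Fn1, Sparc, Nid1, Nid2, Dcn, Lum, Fbn1, Mgp, Lox, Postn, Hspg2 and Bgn. The rule uses gene symbols of the platform annotation and no measured value, but the set was proposed with earlier results of these data known. The rule found 51 genes, with 71 probe sets, among 8251 singly named genes and 12422 probe sets on the Affymetrix MG_U74Av2 array. Fbn1 was not analysed here. A gene with several probe sets is given by its brightest one.

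Total RNA from mouse cells was measured on 4 arrays. R1 is a line of mouse embryonic stem cells, and all R1 cultures grew in DMEM with LIF, the cytokine that sustains self-renewal of these cells, and beta-mercaptoethanol. Embryoid bodies were R1 cells kept floating, without attachment, for 48 hours, and gave 2 arrays, whose titles name aggregation for one and suspension for the other. The adherent group was R1 cells on gelatin, kept under standard conditions meant to hold them undifferentiated, and gave 1 array. Neurospheres, floating colonies of neural stem and progenitor cells, came from the E13.5 telencephalon, grew in DMEM F12 with FGF2 and gave 1 array. For the neurospheres the labels list contaminating astrocytes, glia and oligodendrocytes. The labels give no genotype for any group and no strain for the embryos. Gelatin is denatured collagen, so the adherent cells were plated on a matrix protein that RNA measurements do not see.

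Both embryoid body arrays carry the same sample description, and the labels do not say whether the cultures were separate. Their spread, which may be technical or may hold the difference between aggregation and suspension, was the only spread measured within a group, and the p-values rest on it except where a fit is said to merge the R1 groups. For the neurosphere array and the adherent array, which have no replicate, the fit takes the same spread. The neurospheres differ from the R1 cultures in cell source and in medium together, and these cannot be told apart. Fewer cells of a type and less RNA per cell cannot be told apart either in such bulk samples.

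The extracellular matrix has a sheet form, the basement membrane, and a fibrous interstitial form. In a basement membrane, laminin trimers of an alpha, a beta and a gamma chain polymerise on the cell surface, a second network of type IV collagen lies beside them, and nidogens and perlecan join the networks. Interstitial matrix is built of fibrillar collagens, on which fibril-associated collagens and small proteoglycans sit, with fibronectin assembled along cell surfaces. Laminin is the earliest matrix network of the mouse embryo and is made by inner cell mass derivatives, while in the developing forebrain a basement membrane at the pial surface anchors the end feet of neural stem cells.

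Signals are linear MAS5 signals, scaled so that each array had a trimmed mean of 500, with no unit. On that scale the medians of the arrays were 225 (aggregation), 236 (suspension), 178 (adherent) and 242 (neurospheres), and the 10th percentiles were 29.5, 33.7, 17.4 and 33.8 in the same order. The number of arrays limits the precision, and with no detection calls a dim gene cannot be told from background. A gene was tested where it reached the array median on at least 1 array. Of the 51 genes, 32 were tested and 19 stayed below the median on all 4 arrays. Differences are on the log2(signal + 32) scale, which understates changes of dim genes, and are called at an adjusted p under 0.05 in one limma fit over 6843 features. On simulated arrays of this design the share of false calls exceeded the nominal threshold, so the true false discovery rate of these calls may be higher than their adjusted p-values state.

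Marker genes were set against the labels first. Their calls in neurospheres stand beside 8.2% of all features that rose and 11.9% that fell. All 6 pluripotency markers fell in neurospheres, with summed signals of 48120, 52640 and 49400 on the aggregation, suspension and adherent arrays and 818.5 on the neurosphere array. Of 4 tested neural stem cell markers 3 rose, and their list summed to 56920 in neurospheres and to between 9405 and 10170 on the R1 arrays. Fabp7 gave 41870 of the neurosphere sum. Most of the R1 sums was Sox2, with 8859, 9981 and 9397 on the aggregation, suspension and adherent arrays. Sox2 gave 6644 in neurospheres and was not called, at -0.50 with an adjusted p of 0.182 in limma. The Sox2 probe set is of the _r_at class, whose probes did not meet all design rules. Both genes are named after their values were seen.

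Of the 32 tested matrix genes, 6 fell in neurospheres against the R1 arrays and 1 rose. The 6 were Nid2, Col18a1, Fn1, Lama1, Lama5 and Lamc1, and the riser was Col9a3. The members' share of falls was 18.8%, beside 11.9% of all features, and their share of rises was 3.12%, beside 8.2% of all features. The median difference was 0.04 over the members and 0.10 over all features, and 17 of the 32 differences were positive and 15 negative. Between embryoid bodies and adherent cells 1 member, Col1a2, rose and 0 fell, beside 0.263% and 0.0877% of all features. At an unadjusted p under 0.05 in limma, 7 members were higher in embryoid bodies and 6 lower, or 21.9% and 18.8% of the members, beside 8.51% and 5.86% of all features. Both comparisons use the same R1 arrays and are not independent of each other.

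**Figure D1:**
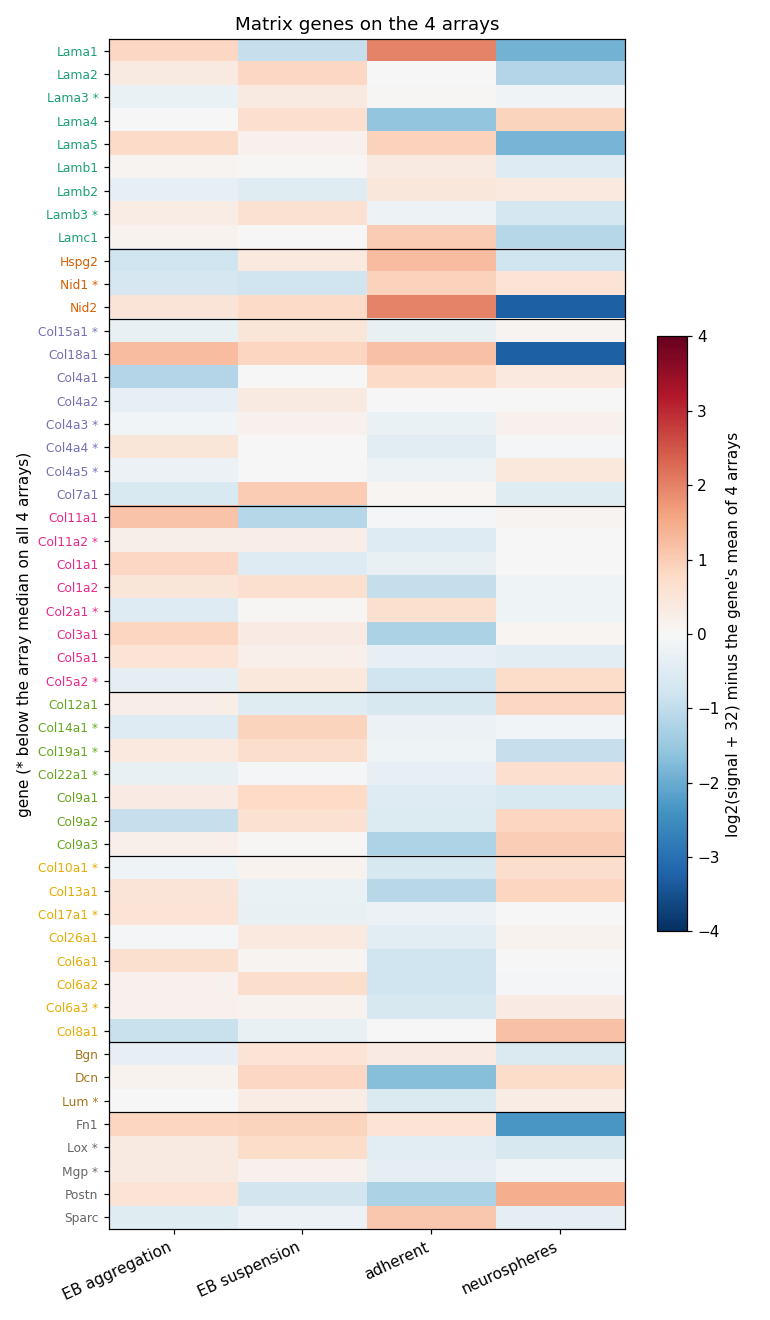
Each row is a matrix gene and each column an array; colour is log2(signal + 32) minus the gene's mean over the 4 arrays, rows are grouped by role with the label colour, and an asterisk marks the 19 genes below the median on all arrays. Nid2, Col18a1 and Fn1 are darkest blue in the neurosphere column.

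The starts of 3 of the 8 genes called in either comparison, Lama5, Col18a1 and Col1a2, were in the RefSeq promoter table of build GRCm38.p6, which held 32 of the 51 members. They are shown because they head a laminin alpha chain and a basement membrane collagen that fell in neurospheres and the fibrillar collagen chain that rose in embryoid bodies. Each line holds the 250 bases before a start, 5′ to 3′ on the strand of the gene, with capitals marking GC boxes (GGGCGG or its reverse complement CCGCCC) and CCAAT boxes (CCAAT or ATTGG). Lama5 lies at chr2:180225860-180226109 on the minus strand, and the windows of the 2 Col18a1 starts at chr10:77113706-77113955 and chr10:77166531-77166780, also minus. The Col1a2 window is chr6:4505368-4505617 on the plus strand.
Lama5: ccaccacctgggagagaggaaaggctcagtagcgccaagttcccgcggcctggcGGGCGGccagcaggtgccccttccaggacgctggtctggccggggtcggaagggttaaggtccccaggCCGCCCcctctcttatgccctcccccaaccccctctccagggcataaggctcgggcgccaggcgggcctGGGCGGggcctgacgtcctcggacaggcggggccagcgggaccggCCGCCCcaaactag
Col18a1 start 1: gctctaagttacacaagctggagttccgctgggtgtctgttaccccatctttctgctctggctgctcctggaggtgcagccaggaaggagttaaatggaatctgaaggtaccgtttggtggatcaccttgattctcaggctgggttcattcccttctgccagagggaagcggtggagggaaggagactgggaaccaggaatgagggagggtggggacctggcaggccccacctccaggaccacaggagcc
Col18a1 start 2: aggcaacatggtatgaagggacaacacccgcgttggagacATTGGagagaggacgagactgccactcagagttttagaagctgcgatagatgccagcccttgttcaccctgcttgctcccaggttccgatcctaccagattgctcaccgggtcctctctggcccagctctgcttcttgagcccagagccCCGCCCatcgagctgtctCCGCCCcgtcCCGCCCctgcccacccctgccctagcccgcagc
Col1a2: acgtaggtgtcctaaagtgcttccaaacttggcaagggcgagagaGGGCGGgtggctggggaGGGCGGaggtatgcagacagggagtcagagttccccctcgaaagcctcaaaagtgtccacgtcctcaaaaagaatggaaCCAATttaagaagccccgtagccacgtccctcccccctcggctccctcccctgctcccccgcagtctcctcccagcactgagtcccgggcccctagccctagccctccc

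The Lama5 window held 4 GC boxes and 72.4% G and C, and the Col1a2 window 2 GC boxes and 1 CCAAT box. The Col18a1 windows differed from each other: start 1 held none of the motifs and 3 CpG dinucleotides, and start 2 held 3 GC boxes, 1 CCAAT box and 12 CpG dinucleotides. None of the 4 windows held the TATA box letters (TATAA or TTATA). Over all 32851 windows of this length, 32.7% held a GC box, 33.8% a CCAAT box and 22.8% TATA box letters, on either strand, and no motif overlaps another in the windows printed. A match describes letters and not a bound site.

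Laminin chains were the role group with the most falls in neurospheres by count, and also the one with the most tested members. Of 7 tested chains 3 fell and 0 rose, beside 11.9% and 8.2% of all features. The median difference of the chains was -1.45. Of the 2 tested basement membrane linkers 1 fell, and their median difference was -2.94. Lama1, the alpha chain of laminin-111, the main laminin of the early embryo, had signals of 412.6 on the aggregation array, 101.1 on the suspension array, 962.5 on the adherent array and 36.03 on the neurosphere array. The neurosphere signal was lowest, just above that array's 10th percentile, and the R1 arrays were widely spread, adherent highest. The log2 difference was -2.85 ± 0.72 (SE, 2 embryoid body arrays, 1 adherent array and 1 neurosphere array), with an adjusted p of 0.00754.

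The Lama1 call was the least stable of the laminin calls. A fit without 1 embryoid body array has to merge the embryoid body and adherent arrays into 1 R1 group. Without the aggregation array Lama1 was not called in such a fit, at -2.42 with an adjusted p of 0.0968, while with all arrays in the merged fit it was, at -2.52 with an adjusted p of 0.0292. It was also lost against the embryoid bodies alone, where it was -1.84 with an adjusted p of 0.105. It was called in 8 of 12 alternative analyses, with adjusted p-values from 9.03e-04 to 0.105. It was also the member that differed most in embryoid bodies from adherent cells in the negative direction, at -2.03 ± 0.75 with an adjusted p of 0.227, which was not called.

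Lama5, the alpha chain of laminin-511, a widespread basement membrane laminin on which mouse embryonic stem cells attach, gave 1179, 783.8 and 1332 on the aggregation, suspension and adherent arrays and 164.8 on the neurosphere array. All R1 arrays lay above the neurosphere array, by 4.76-fold at the least. The log2 difference was -2.56 ± 0.40 with an adjusted p of 1.29e-04, and it was called in all 12 alternatives. A dimmer Lama5 probe set of the _f_at class, whose probes can match several members of a family, differed by -0.64, with signals from 269.1 to 429.8 on the R1 arrays and 201.3 on the neurosphere array.

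Lamc1, the gamma chain found in most laminins, gave 909.2, 816.2 and 1670 on the aggregation, suspension and adherent arrays and 348.5 on the neurosphere array. The neurosphere array was again the lowest, and the adherent array was highest. The log2 difference was -1.70 ± 0.37, with an adjusted p of 0.00247. Its brightest probe set is also of the _f_at class, and the second one differed by 0.29, with signals from 62.57 to 241.1. With the mean of the probe sets the difference was -0.70 and the adjusted p 0.374, among adjusted p-values from 0.00193 to 0.374 over the alternatives.

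The other tested chains did not pass the test in either comparison. Lama2, the muscle and nerve laminin alpha chain, gave 197.7 and 280.9 in embryoid bodies, 141.8 in adherent cells and 46.91 in neurospheres. Lama4, found in vessel walls, gave 157.5, 274.5, 32.43 and 324.4 in the same order. The neurosphere array was thus lowest for Lama2 and highest for Lama4, where the adherent array stood below the others. A dimmer Lama4 probe set, below the median on all arrays, gave 55.71, 131.1, 90.24 and 125.9 in the same order. The Lama2 difference was -1.45 with an adjusted p of 0.209, and the Lama4 difference was 1.52 with an adjusted p of 0.173. Lamb1, the beta chain partner of Lamc1 and Lama1, gave 471.6, 449.9, 569.5 and 297.3, a difference of -0.73 with an adjusted p of 0.29. Lamb2, the beta chain of mature basement membranes, had 161.4 and 139.2 in embryoid bodies, 297.9 in adherent cells and 282.4 in neurospheres. Lama3 and Lamb3, chains of the epidermal laminin-332, were below the array median on all 4 arrays.

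**Figure D2:**
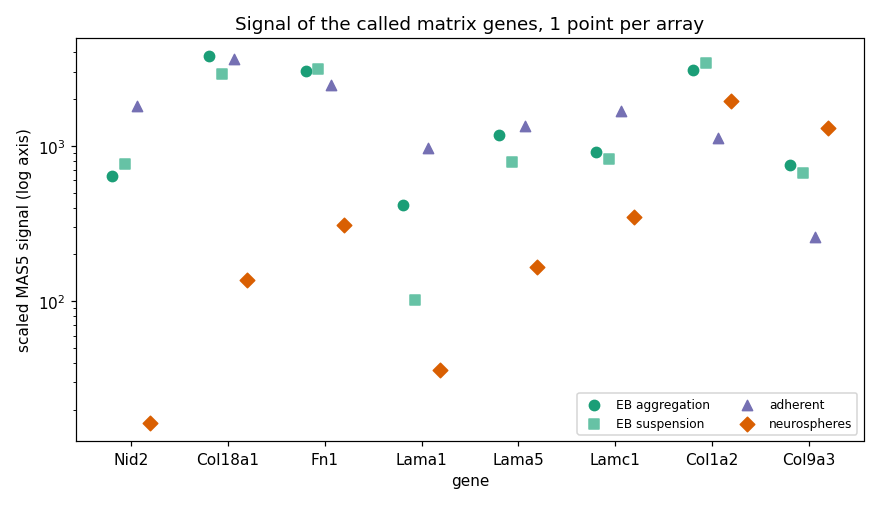
Scaled MAS5 signal of the 8 called matrix genes on a log axis, 1 point per array, with circles for aggregation, squares for suspension, triangles for adherent cells and diamonds for neurospheres. The neurosphere diamond is below all R1 points for the first 6 genes and above them for Col9a3, while for Col1a2 the adherent triangle is lowest.

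Nidogens and perlecan link laminin to the collagen IV network. Nid2, nidogen-2, gave 635 and 760.3 in embryoid bodies, 1806 in adherent cells and 16.51 in neurospheres. The neurosphere signal lay below that array's 10th percentile, so no fold is given, and the adherent array was above both embryoid body arrays. The log2 difference between neurospheres and R1 cells was -4.57 ± 0.46 with an adjusted p of 9.78e-07. Nid2 was called in all 12 alternatives, with differences from -6.00 to -3.40. Hspg2, perlecan, a heparan sulfate proteoglycan, gave 306.7, 743, 1364 and 309.4 on the aggregation, suspension, adherent and neurosphere arrays. The aggregation and neurosphere arrays were about level, and the adherent array was highest. The Hspg2 difference was -1.31 ± 0.48 with an adjusted p of 0.0596, which was not called. Against the adherent array alone it was -2.03 with an adjusted p of 0.0189, the only call in 12 alternatives. Against embryoid bodies alone it was -0.59 with an adjusted p of 0.472. Nid1, nidogen-1, stayed below the median on all arrays, with signals from 11.43 to 112.

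Col18a1 codes the basement membrane collagen whose C-terminal fragment is endostatin. It had signals of 3774 and 2891 in embryoid bodies, 3626 in adherent cells and 137 in neurospheres. On this brightest probe set the R1 arrays lay close together and 21.1-fold to 27.5-fold above the neurosphere array. The log2 difference was -4.37 ± 0.31 with an adjusted p of 7.69e-09. Of its other probe sets, 3 had differences of -4.87, -4.70 and -3.15. On these 3, embryoid bodies differed from adherent cells by -1.16, -0.91 and -0.95, which was not tested. That difference was -0.13 on the brightest probe set, with an adjusted p of 0.884 in limma, and 0.84 on the remaining one.

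The fourth did not follow, with 299.2 and 249.3 in embryoid bodies, 139 in adherent cells and 317.2 in neurospheres, a difference of 0.61. The probe sets were not placed on the transcripts here. The type IV collagen chains, the core of the second network, did not pass the test. Col4a1 gave 181.3, 455.3, 789.6 and 594.5 on the aggregation, suspension, adherent and neurosphere arrays, and Col4a2 gave 476.4, 791.4, 597.5 and 596. The R1 arrays overlapped the neurosphere array for both. Their differences were 0.28 and -0.02, with 95% intervals from -0.79 to 1.35 and from -0.92 to 0.87, and neither sign was stable over the alternatives.

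The 2 genes are divergent neighbours, with RefSeq starts 21 bases apart on opposite strands. Col4a1 was also lower in embryoid bodies than in adherent cells, at -1.35 with an adjusted p of 0.257, and Col4a2 differed by 0.04. Col7a1, the anchoring fibril collagen of skin, gave 157.1, 556.8, 273 and 173.6 and passed no test. The minor chains Col4a3, Col4a4 and Col4a5 of kidney and lung and Col15a1, a relative of Col18a1, stayed below the median on all arrays.

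**Figure D3:**
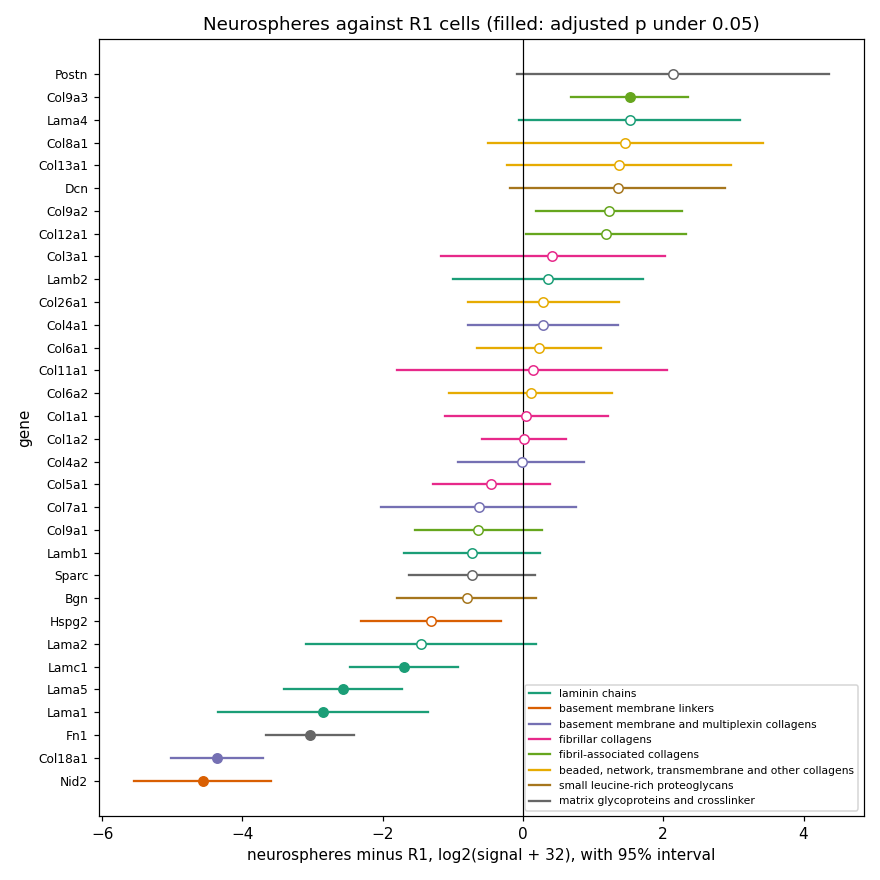
Difference of the neurosphere array from the R1 arrays in log2(signal + 32), with 95% intervals from limma, for the 32 tested matrix genes, coloured by role; filled points had an adjusted p under 0.05. The 6 filled points on the left are Nid2, Col18a1, Fn1, Lama1, Lama5 and Lamc1, and the filled point on the right is Col9a3.

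Fibronectin, the Fn1 product, is the glycoprotein on which cells spread and assemble other matrix. Fn1 gave 3041 on the aggregation array, 3137 on the suspension array, 2470 on the adherent array and 307 on the neurosphere array. The R1 arrays were close to one another and 8.05-fold to 10.2-fold above the neurosphere array, whose own signal was above that array's median of 242. The log2 difference was -3.04 ± 0.30 with an adjusted p of 6.88e-07, and it was called in all 12 alternatives. Embryoid bodies and adherent cells differed by 0.32, with an interval from -0.34 to 0.98 and an adjusted p of 0.679.

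Sparc, a collagen-binding glycoprotein of basement membranes, gave 364.1 and 437.2 in embryoid bodies, 1148 in adherent cells and 398.6 in neurospheres. Only the adherent array stood apart, above the others, and the neurospheres lay between the embryoid body arrays. The embryoid body difference from adherent cells was -1.45 ± 0.45 with an adjusted p of 0.177. Postn, periostin, of connective tissue, gave 132.2, 35.99, 15.24 and 278.4 on the aggregation, suspension, adherent and neurosphere arrays. Its difference in neurospheres was the largest positive one among the members, 2.14 ± 1.06, but did not pass the test, at an adjusted p of 0.173. The crosslinker Lox and the calcification inhibitor Mgp stayed below the median on all arrays.

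Among the fibrillar collagens, 1 of 5 tested members was called in either comparison. Col1a2, the alpha-2 chain of type I collagen, gave 3062 and 3428 in embryoid bodies, 1123 in adherent cells and 1943 in neurospheres. Both embryoid body arrays lay above the neurosphere array, which lay above the adherent array. Embryoid bodies were 2.73-fold and 3.05-fold above adherent cells, and the log2 difference was 1.50 ± 0.30 with an adjusted p of 0.0294. The neurosphere difference from all R1 arrays was 0.02 with an adjusted p of 0.963, and its sign changed over the alternatives.

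The measured Col1a2 probe set is of the _r_at class, whose probes did not meet all design rules, and the only one of that class among the 51 members. The other probe set gave 34.69, 53.1, 13.96 and 63.25 on the aggregation, suspension, adherent and neurosphere arrays, all below the array medians. Having failed the signal filter, it enters none of the fitted Col1a2 values, also not where the probe sets of each gene were averaged. An unchanged difference there is no check of one probe set by the other. Without _r_at probe sets Col1a2 had no tested probe set, so that setting is not among its alternatives. The Col1a2 call was kept in 4 of 7 alternatives: with the probe sets of each gene averaged the adjusted p was 0.0902, without the signal filter 0.287 and without the intensity trend 0.434, at the same difference of 1.50, and the lowest was 0.0213. Col1a1, which codes the alpha-1 chain of the same trimer, gave 691.3, 257.1, 299.4 and 372.2 and was not called in either comparison.

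Col3a1, the type III chain of vessels and other distensible tissues, gave 306.5, 200.3, 45.52 and 165.9, and both embryoid body arrays were above the adherent array. The difference of 1.85 did not pass the test, at an adjusted p of 0.295. Col5a1, which sets fibril diameter, gave 963.6, 752.8, 512.4 and 476.5, with embryoid bodies highest. Col11a1, a cartilage fibril chain, was 335.2 on the aggregation array and 43.55 on the suspension array, with 125.9 in adherent cells and 146.6 in neurospheres. Col2a1 and Col11a2 of cartilage and Col5a2 stayed below the median on all arrays.

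The fibril-associated collagens held the only riser in neurospheres. Col9a3, a chain of type IX collagen, which coats cartilage fibrils, gave 754.9 and 663.6 in embryoid bodies, 257.9 in adherent cells and 1298 in neurospheres. The neurosphere array was highest and the adherent array lowest. The log2 difference was 1.52 ± 0.40 with an adjusted p of 0.00968.

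This call did not hold once the R1 groups were merged: the difference was 1.30 with an adjusted p of 0.0939 with all arrays, 1.57 with 0.0827 without aggregation and 1.48 with 0.0817 without suspension. Against embryoid bodies alone the difference was 0.85 with an adjusted p of 0.185. Col9a3 was called in 7 of 12 alternatives, with adjusted p-values from 0.00317 to 0.185. Against adherent cells, embryoid bodies were higher by 1.35 ± 0.41, with an adjusted p of 0.177. A second Col9a3 probe set was below the array medians and differed by 0.02.

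The partner chains of type IX collagen were not called. Col9a2 gave 322, 1007, 429.2 and 1204 on the aggregation, suspension, adherent and neurosphere arrays, a difference of 1.22 ± 0.50 with an adjusted p of 0.0921. Col9a1 gave 685.5, 975.9, 373.7 and 345.1, a difference of -0.64 with an adjusted p of 0.318. The suspension array was thus near the neurosphere array for Col9a2 and the highest for Col9a1. Col12a1, a fibril-associated chain of tendon and skin, gave 401.6, 226.1, 200.6 and 604.8, a difference of 1.19 with an adjusted p of 0.134. A dimmer Col12a1 probe set gave 115, 316.4, 36.1 and 93.41 in the same order, a difference of 0.01. With the probe sets averaged the Col12a1 difference was 0.60 with an adjusted p of 0.556. Col14a1, Col19a1 and Col22a1 stayed below the median on all arrays.

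The beaded, network and transmembrane collagens had 5 tested members and 0 calls in limma in either comparison, and at an unadjusted p under 0.05 only Col6a1 was higher in embryoid bodies. Col6a1 and Col6a2, chains of the beaded filament collagen VI, gave 926.3 and 338.6 on the aggregation array, 636.5 and 503.5 on the suspension array, 325.8 and 161.2 on the adherent array and 594.4 and 285.4 on the neurosphere array. For both, every other array lay above the adherent one. Embryoid bodies differed from adherent cells by 1.16 for Col6a1, with an adjusted p of 0.244, and by 1.21 for Col6a2, with an adjusted p of 0.35. Col8a1, a network collagen of vessel walls, gave 40.45, 76.24, 101.2 and 267.3 and was the only member at least 2-fold above every R1 array in neurospheres on the signal + 32 scale, beside 9.18% of all features. On the signal itself Postn was too, by 2.11-fold at the least. The Col8a1 difference of 1.46 was not called in limma, at an adjusted p of 0.293. Below every R1 array by at least 2-fold on the signal + 32 scale were 6 members, or 18.8%, beside 9.37% of all features: Col18a1, Fn1, Lama2, Lama5, Lamc1 and Nid2. On the signal itself Lama1 was too, by 2.81-fold at the least, from a neurosphere signal close to that array's 10th percentile.

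Col13a1, a transmembrane collagen, gave 241.8, 125.4, 55.22 and 314.9, and Col26a1 gave 332.8, 467.9, 250.9 and 394, both with the adherent array lowest. Of the small leucine-rich proteoglycans, which bind collagen fibrils, decorin (Dcn) gave 191.8, 322.7, 29.74 and 304. The adherent array was the low one. Embryoid bodies were 2.19 ± 0.76 above adherent cells on the log2 scale, the largest positive difference among members, with an adjusted p of 0.215. Biglycan (Bgn) gave 380.2, 724, 615.2 and 313.7, and lumican (Lum) stayed below the median on all arrays. Col6a3, Col10a1 and Col17a1 stayed below it too.

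**Figure D4:**
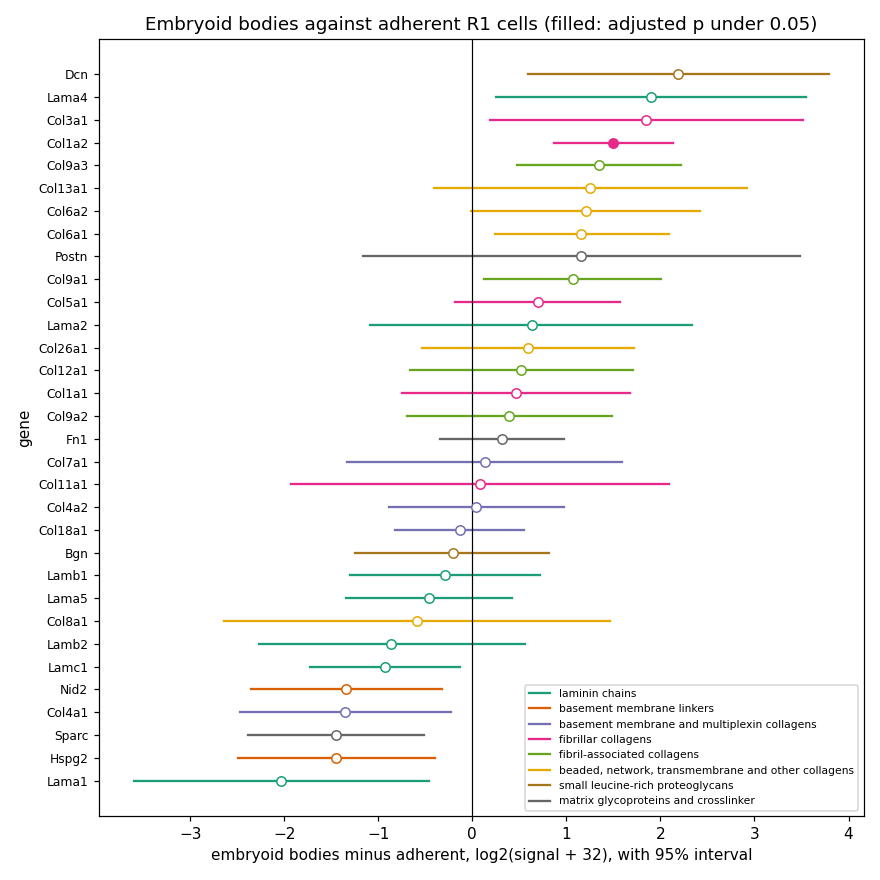
Difference of the embryoid body arrays from the adherent array in log2(signal + 32), with 95% intervals from limma, for the 32 tested matrix genes, coloured by role; the filled point had an adjusted p under 0.05. Col1a2 is the only filled point, Dcn has the largest positive difference and Lama1 the largest negative one.

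The 6 members lower in embryoid bodies than in adherent cells at an unadjusted p under 0.05 were Col4a1, Hspg2, Lama1, Lamc1, Nid2 and Sparc. Of these, Lama1 and Lamc1 are laminin chains, Nid2 and Hspg2 linkers, Col4a1 a type IV collagen chain and Sparc a collagen binder. The 7 higher ones were Col1a2, Col3a1, Col6a1, Col9a1, Col9a3, Dcn and Lama4, of which only Lama4 is a laminin. A dimmer Lamc1 probe set differed by 0.20, and with the probe sets averaged Lamc1 was -0.36 with an adjusted p of 0.81 in limma. Dimmer probe sets below the array medians gave -0.03 for Lama4, -0.83 for Col9a3 and -0.06 and 0.60 for Col3a1. They gave 0.07 for Col6a1 and 0.71 for Col1a2. By role, the median difference was -0.46 for laminin chains, -1.39 for the linkers and -0.05 for basement membrane and multiplexin collagens. It was 0.32 for matrix glycoproteins, 0.70 for fibrillar collagens, 0.80 for fibril-associated collagens, 0.99 for the small proteoglycans and 1.16 for the other collagens. Over all features the median was 0.10. Only the Col1a2 difference passed after adjustment. The other 12 did not pass the adjustment over all features and were not called.

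The aggregation and suspension arrays differed by at least 2-fold on the signal + 32 scale in 8 members, with no test possible. Higher in aggregation were Col11a1, Lama1, Col1a1 and Postn, or 12.5% of the members beside 6.25% of all features, with differences of 2.28, 1.74, 1.32 and 1.27. Lower in aggregation were Col7a1, Col9a2, Col4a1 and Hspg2, or 12.5% beside 8.02%, with differences of -1.64, -1.55, -1.19 and -1.19. For these 8 genes the embryoid body mean hides a wide pair.

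**Figure D5:**
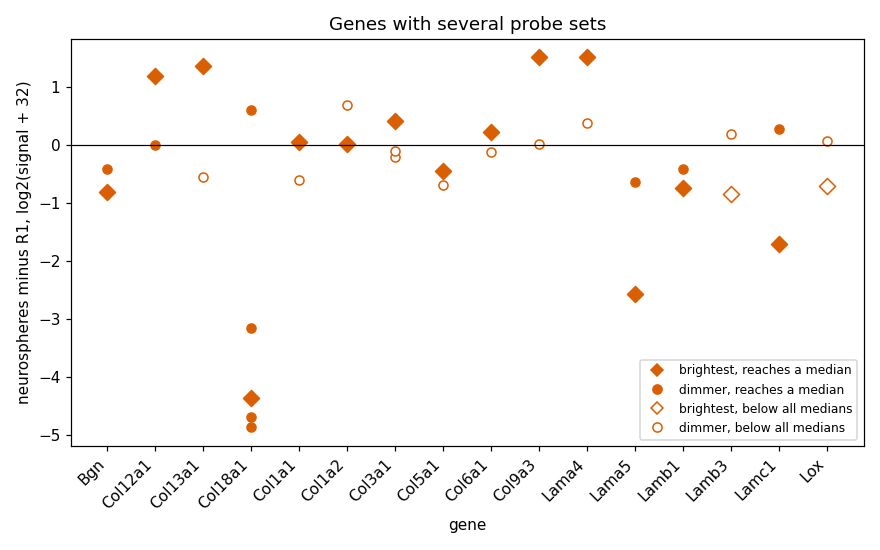
Difference of the neurosphere array from the R1 arrays for every probe set of the 16 matrix genes with several, in log2(signal + 32); diamonds are the brightest probe set, circles the others, and open symbols stayed below the median on all arrays. The probe sets of Col18a1 and Lamc1 lie on both sides of 0, and both of Lama5 lie below it.

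Of the 16 members with several probe sets, 8 had all their probe sets on one side of 0 in neurospheres and 8 did not. The companion genes that make, cut, bind and induce matrix were taken from 4 lists. Over all features, 8.2% rose and 11.9% fell in neurospheres, and 0.263% rose and 0.0877% fell in embryoid bodies against adherent cells. The counts of these lists stand beside those shares. Of 11 tested genes for collagen processing and secretion, 3 rose and 2 fell in neurospheres, with a median difference of 0.29. Pcolce, the enhancer of procollagen C-proteinase, gave 575.1 and 853.7 in embryoid bodies, 1317 in adherent cells and 129.3 in neurospheres, a difference of -2.62 with an adjusted p of 2.15e-04. Serpinh1, the collagen chaperone HSP47, gave 140.5, 500, 1121 and 2577 on the aggregation, suspension, adherent and neurosphere arrays, a difference of 2.14 with an adjusted p of 0.00439. Crtap, part of the prolyl 3-hydroxylase complex, gave 1731, 1902, 2954 and 1044, a difference of -1.13 with an adjusted p of 0.0106. Neurospheres were thus below all R1 arrays for Pcolce and Crtap and above them for Serpinh1. The Serpinh1 call held in 9 of 12 alternatives, with adjusted p-values from 1.09e-04 to 0.188, and the Crtap call in 7, with adjusted p-values from 0.00731 to 0.141. Crtap was not called with the R1 groups merged, at -1.01 with an adjusted p of 0.0914 with all arrays, -1.16 with 0.136 without aggregation and -1.09 with 0.118 without suspension.

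Of 9 tested matrix proteases and inhibitors, 0 were called by limma in either comparison, with a median difference of 0.20 in neurospheres. At an unadjusted p under 0.05, 2 were higher in neurospheres and 0 differed in embryoid bodies. In neurospheres, Timp1, an inhibitor of matrix metalloproteinases, differed by -0.41 with an adjusted p of 0.38 and Mmp14, a membrane-bound collagenase, by 0.20 with an adjusted p of 0.73. Of 15 tested receptors for collagen, laminin and fibronectin, 4 rose and 1 fell in neurospheres, with a median difference of 0.16. The one that fell was Sdc4, syndecan-4, a fibronectin co-receptor, with 3674 and 1330 in embryoid bodies, 1074 in adherent cells and 128.6 in neurospheres, a difference of -3.30 with an adjusted p of 2.77e-05. Itgb5, the integrin beta-5 chain, gave 107.6, 249.1, 860.6 and 2217, a difference of 2.42 with an adjusted p of 0.00117. With its probe sets averaged the Itgb5 difference was 1.42 with an adjusted p of 0.109. Ddr1, a collagen receptor kinase, gave 400.2, 501.5, 606.8 and 2442, a difference of 2.16 with an adjusted p of 4.16e-04. The neurosphere array was above all R1 arrays for Itgb5 and Ddr1 and below them for Sdc4. The Sdc4 call held in 11 of 12 alternatives, with adjusted p-values up to 0.0554, the Itgb5 call in 9, up to 0.12, and the Ddr1 call in all 12. Between embryoid bodies and adherent cells Itgb1, the chain shared by most laminin and collagen receptors, fell by 1.91 with an adjusted p of 0.0266, and its call held in 3 of 8 alternatives, with adjusted p-values from 0.0239 to 0.434. Its signals were 597.6 and 1238 in embryoid bodies, 3340 in adherent cells and 3898 in neurospheres. This Itgb1 probe set is of the _f_at class. With the Itgb1 probe sets averaged, embryoid bodies differed from adherent cells by -1.23 with an adjusted p of 0.186.

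Of 9 tested TGF-beta signals and inducers of matrix, 2 fell in neurospheres and 0 rose, with a median difference of -0.07. Ccn2, connective tissue growth factor, gave 490.6 and 464.9 in embryoid bodies, 794.1 in adherent cells and 21.44 in neurospheres, a difference of -3.60 with an adjusted p of 9.46e-05. That neurosphere signal lies below the array's 10th percentile, so the size of the difference depends on the added constant, from -4.78 with 1 added to -2.57 with 100 added. Smad7, an inhibitor of TGF-beta signalling, gave 1202, 1780, 885.7 and 92.65, a difference of -3.23 with an adjusted p of 1.03e-05. Both genes were lowest on the neurosphere array, and their calls held in all 12 alternatives. In the comparison of embryoid bodies with adherent cells Itgb1 was the only call of the 4 lists, whose medians were -0.21 for processing, 0.23 for proteases, -0.41 for receptors and 0.36 for TGF-beta signals, beside 0.10 over all features. The brightest processing genes were P4hb, the prolyl 4-hydroxylase beta subunit, and Ppib, a cyclophilin of the same folding machinery. In that comparison P4hb differed by 0.89 with an adjusted p of 0.204 and Ppib by -0.46 with an adjusted p of 0.492. The P4hb probe set is of the _r_at class, and without that class P4hb differed by -0.51.

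Markers of other cell types were read on the same arrays. The shares of all features called in neurospheres were 8.2% for rises and 11.9% for falls. Of 13 endoderm markers 5 were tested and 1, Plat, rose in neurospheres, with list sums of 1583, 1943, 1160 and 6311 on the aggregation, suspension, adherent and neurosphere arrays, of which Plat gave 3882 in neurospheres. Between 9 and 12 of the 13 were below the array median on each array. Of 10 fibroblast and mesenchyme markers 5 were tested and 0 were called by limma, though at an unadjusted p under 0.05 1 was higher and 1 lower in neurospheres, with sums of 1161, 1826, 1853 and 1742 and 7 or 8 of the 10 below the median. Of 7 endothelial markers 4 were tested and 1, Eng, fell in neurospheres, with sums of 1971, 1970, 2017 and 866.5. The 4 astrocyte and oligodendrocyte markers on the array summed to 1220, 1457, 624.2 and 2253, and 1, Sox10, rose in neurospheres. No marker is listed at 0. These called markers are named after their values were seen, and the part of such cells in the matrix results was not tested.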

How the data were processed

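The members and the gene lists were chosen with earlier results of these data known. The authors deposited linear MAS5 signal intensity per probe set, per the submitters' processing notes; the MAS5 version, scaling target and settings are not stated in the sources used. The arrays had different scales, with trimmed means of 32.54, 1485, 29.46 and 1490 on the aggregation, suspension, neurosphere and adherent arrays. All 4 were scanned after an antibody stain on one station, per the file headers. Of 12488 probe sets, 66 controls were left out. The platform annotation named 1 gene for 10833, several for 396 and none for 1193. Arrays were brought to a common trimmed mean of 500 (2% left out at each end), and 32 was added before log2. Probe sets reaching the array median on at least 1 array (8031) were kept, and the brightest per gene gave 6843 features, of which 6002 were named genes. One limma model (limma 3.58.1, R 4.3.3) with 3 groups, eBayes with an intensity trend and Benjamini-Hochberg adjustment over all features was two-sided, with 1 residual and 17.34 prior degrees of freedom. In the neurosphere comparison, R1 stands for the mean of the embryoid body and adherent groups. The fit was tested on simulated data with known changes: it recovered their sizes, but more of its calls were false than the nominal threshold allows, with so few residual degrees of freedom. Any matrix gene may be named; of each companion list, up to 3 called genes per comparison by absolute difference are, or the 2 brightest where none was called. Alternatives changed the added constant, filter, scaling, trend, probe set choice, groups and arrays, 1 at a time, except that leaving out an embryoid body array also merged the embryoid body and adherent groups into 1 R1 group, since no residual degree of freedom is left otherwise.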

Additional observations from a re-analysis of the deposited data

How the results depend on the processing

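Nid2, Col18a1, Fn1 and Lama5 kept their direction and their call in neurospheres under all 12 alternatives; the number of members that fell stayed within 1.5 times of 6. The 1 member that rose, Col9a3, left 0 rises without the intensity trend, without either embryoid body array (0 and 0, which also merges the R1 groups), against embryoid bodies alone and with 2 groups, where limma at an unadjusted p under 0.05 gave 6, 1, 2, 0 and 2. Col1a2 left 0 rises in embryoid bodies without the signal filter, without the trend, with the mean of probe sets and without _r_at probe sets, with 7, 7, 8 and 6 at an unadjusted p. Companion rises numbered 7, but 2 without the trend, 3 to 4 without an embryoid body array and 2 against the adherent array alone, and falls numbered 5, but 3 without the trend. The companion fall in embryoid bodies, Itgb1, left 0 without the filter, with quantile normalization, without the trend, with the mean of probe sets and without _r_at probe sets, with 8, 4, 6, 4 and 5 at an unadjusted p. Members at least 2-fold above every R1 array numbered 2 with 1 added before log2, and 0 with 100 added or quantile normalization. The members' median against embryoid bodies alone was -0.42. Reversed signs were those of uncalled differences: in neurospheres Col1a2 at -0.02 to 0.06 without an embryoid body array, -0.73 against embryoid bodies alone and -0.23 with 2 groups; Col4a1 at -0.01 to 0.58 without an array and -0.39 against adherent cells alone; Col4a2 at -0.20 to 0.15 without an array; and P4hb in embryoid bodies at -0.51 without _r_at probe sets. The causes were not tested. Over all features, 561 rose and 816 fell in neurospheres, against 219 and 245 without the trend, 381 and 566 with 2 groups on all arrays, and, in the same 2-group fit, 269 and 400 without aggregation and 329 and 451 without suspension. In embryoid bodies 18 rose and 6 fell, against 0 and 0 without the filter (693 and 416 at an unadjusted p in limma) or the trend (476 and 232), 1 and 1 with the mean of probe sets and 3 and 2 without _r_at probe sets; 2 fell with quantile normalization and 11 with the R1 arrays alone. Leaving out 1 embryoid body array leaves no residual degrees of freedom for the embryoid body comparison, which then has no test. No paired analysis was possible because the labels give no replicate numbers.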
